A study of Mus musculus with 12 samples.

Results

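The nuclear-encoded genes of the respiratory chain were taken as the autosomal protein-coding genes of GENCODE mouse release M21 whose symbols start with Nduf, Uqcr, Atp5 or Cox4 to Cox8, together with Sdha, Sdhb, Sdhc, Sdhd, Cyc1 and Cycs. This gave 93 gene records of 20807 autosomal protein-coding genes. They carry 92 symbols, because Atp5o has 2 overlapping records. The 3 X-linked genes that the symbols would match (Ndufa1, Ndufb11 and Cox7b) were left out. The members comprised 34 structural genes of complex I, 8 complex I assembly factors (Ndufaf genes), 4 genes of complex II, 10 of complex III with cytochrome c, 19 of complex IV and 18 of complex V.

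The respiratory chain of the inner mitochondrial membrane passes electrons from NADH and succinate to oxygen through complexes I to IV, and the proton gradient this builds drives ATP synthesis by complex V. Most of its subunits are encoded in the nucleus and imported, and the remainder are encoded by the mitochondrial chromosome. In white adipose tissue this chain supplies the ATP used for lipid synthesis and storage. MOF (KAT8) is a lysine acetyltransferase that acetylates histone H4 at lysine 16, and it binds many promoters of widely expressed genes.

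MOF binding was mapped by ChIP-seq (sequencing of chromatin immunoprecipitated with an antibody) in visceral white adipose tissue (WAT) of C57BL/6 mice 8 weeks old on a standard diet. The labels list 12 libraries in 6 groups of 2, namely input DNA, histone H3 ChIP and MOF ChIP from wild type (Mof+/+) and from Mof heterozygous (Mof+/-) mice, which retain 1 intact allele in every cell. The data analysed were 2 lists of MOF peaks called against input, 1 for each genotype, with 19773 peaks for Mof+/+ and 731 for Mof+/-. Neither list holds values of single libraries, so the variation from animal to animal is unknown and the genotypes are compared without a test. The tissue is a mixture of cell types, and a gene with a peak may carry it in any of them. Of 12 genes typical of adipocytes, 8 had a Mof+/+ promoter peak (66.7%, Wilson interval 39.1% to 86.2%). This interval includes the 42.7% of all autosomal coding genes. Lep, Fabp4, Cidec and Pparg had none, the nearest peak lying 1614 bp from a start of Fabp4 and 2223 bp from one of Pparg. By ChIP-qPCR in WAT the paper found MOF at the Pparg promoter and no enrichment at those of Glut4 (Slc2a4) and Pgc1α (Ppargc1a). In the Mof+/+ list Slc2a4 had a promoter peak and Ppargc1a had none. The list thus differs from the ChIP-qPCR at Pparg and Slc2a4 but not at Ppargc1a.

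To ask which respiratory chain genes carried MOF, a gene was counted as bound when a peak lay within 1 kb of any of its annotated start sites. Unbound means here only that no such peak was called. In the Mof+/+ list 66 of the 93 members were bound (71.0%, 95% Wilson interval 61.1% to 79.2%), where 42.7% of all autosomal coding genes were (8894 of 20807). In the Mof+/- list 0 of the 93 were bound (interval 0% to 3.97%), where 1.37% of all autosomal coding genes were (285 of 20807). The Mof+/+ interval lay above the share of all genes, whereas the Mof+/- interval included it. A gene is 1 entry and no replicate, so these intervals cover counting error only.

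**Figure D1:**
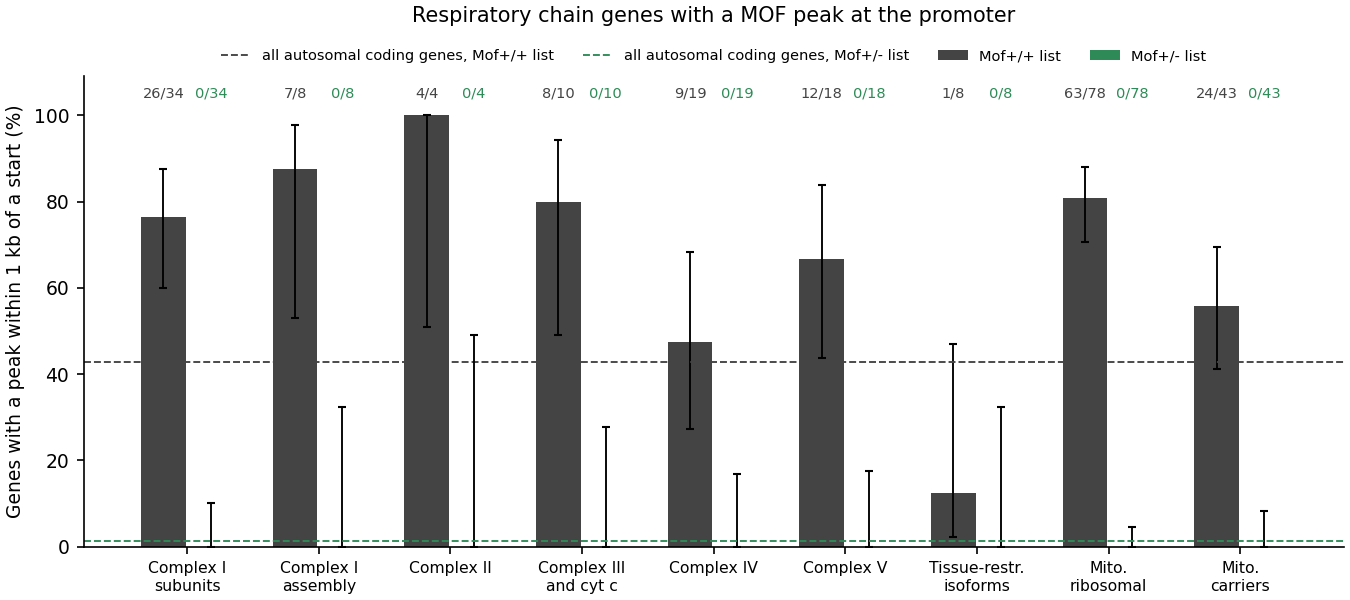
Share of genes (%) with a MOF peak within 1 kb of a start site, for each complex, for the 8 tissue-restricted isoforms, and for mitochondrial ribosomal and carrier genes. Bars give the Mof+/+ list (grey) and the Mof+/- list (green, all at 0), error bars are 95% Wilson intervals, numbers on top give bound over all genes, and dashed lines mark all autosomal coding genes (42.7% and 1.37%); complex II stands highest at 4 of 4 and complex IV lowest of the complexes at 9 of 19.

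Each complex had bound genes in the Mof+/+ list. Binding was found at 26 of 34 structural genes of complex I (76.5%, 60.0% to 87.6%), at 4 of 4 genes of complex II (51.0% to 100%), at 8 of 10 genes of complex III with cytochrome c (80.0%, 49.0% to 94.3%), at 12 of 18 of complex V (66.7%, 43.7% to 83.7%) and at 9 of 19 of complex IV (47.4%, 27.3% to 68.3%). The plot of shares by complex shows that these intervals overlap one another. The share of complex IV was close to the 42.7% of all coding genes and its interval included that value, while the intervals of complexes I, II and III lay above it. The interval of complex V lay above it only with Atp5s, whose product is not a subunit, and without that gene the share was 11 of 17 (64.7%, 41.3% to 82.7%). Among peaks with q ≤ 0.001 the share fell to 30.0% in complex III with cytochrome c (3 of 10) and to 26.3% in complex IV (5 of 19), both below the 32.7% of all coding genes under that threshold, and to 50% in complex II (2 of 4). The Ndufaf assembly factors were bound at 7 of 8 genes (87.5%, 52.9% to 97.8%) and the 85 other members at 59 (69.4%, 59.0% to 78.2%), so assembly and structural genes could not be told apart with 8 assembly genes.

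Other mitochondrial genes in the same list gave values on both sides. Genes for mitochondrial ribosomal proteins (Mrpl and Mrps) were bound at 63 of 78 (80.8%, 70.7% to 88.0%), and the Slc25 carriers, which move metabolites across the inner membrane, at 24 of 43 (55.8%, 41.1% to 69.6%). Both intervals overlapped that of the respiratory chain genes, and both groups were bound at 0 genes in the Mof+/- list.

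The promoters of 3 members are shown because they are the most strongly bound gene of complex V and a pair of isoforms of which only 1 was bound. Each sequence runs from 250 bases before the start site to 50 bases after it, 5′ to 3′ on the strand of the gene, read from GRCm38.p6. Atp5g3 (chr2:73911277-73911576, minus strand) encodes subunit c of the ATP synthase rotor ring and was bound. Cox8a (chr19:7217567-7217866, minus strand) encodes the widely expressed form of subunit 8 of cytochrome c oxidase and was bound. Cox8b (chr7:140900397-140900696, minus strand) encodes its form of heart and skeletal muscle and was not. Capitals mark the ERR element TCAAGGTCA (read here on the other strand) in Atp5g3, the ETS/GABP core CCGGAAGT (on the other strand) in Cox8a and the TATA box TATAAA in Cox8b.
Atp5g3: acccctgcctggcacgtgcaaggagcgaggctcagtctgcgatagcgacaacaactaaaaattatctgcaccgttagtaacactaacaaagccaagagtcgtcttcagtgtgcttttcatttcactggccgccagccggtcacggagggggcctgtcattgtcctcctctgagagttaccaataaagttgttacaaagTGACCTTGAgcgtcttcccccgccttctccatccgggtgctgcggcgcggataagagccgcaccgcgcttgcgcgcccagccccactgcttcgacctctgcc
Cox8a: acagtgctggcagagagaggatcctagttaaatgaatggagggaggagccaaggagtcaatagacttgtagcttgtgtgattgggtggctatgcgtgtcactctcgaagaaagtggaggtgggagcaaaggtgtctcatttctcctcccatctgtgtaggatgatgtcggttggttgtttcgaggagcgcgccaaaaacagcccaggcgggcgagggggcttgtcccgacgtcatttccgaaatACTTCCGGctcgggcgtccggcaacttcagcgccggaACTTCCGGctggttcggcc
Cox8b: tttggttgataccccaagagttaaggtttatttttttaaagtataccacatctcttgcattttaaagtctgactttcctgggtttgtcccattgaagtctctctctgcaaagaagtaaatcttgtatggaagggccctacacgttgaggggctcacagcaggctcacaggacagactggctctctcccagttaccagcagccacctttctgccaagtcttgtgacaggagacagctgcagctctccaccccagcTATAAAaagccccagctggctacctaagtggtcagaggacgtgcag
The Atp5g3 sequence holds 21 CpG sites and the Cox8a sequence 19, with 2 copies of the ETS/GABP core. The Cox8b sequence holds 2 CpG sites.

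The strength of a peak is given as its fold enrichment, which divides the fragments at the summit by the local background of the input after adding 1 to both. The strongest peak of a gene is the one with the smallest p-value. Over the 66 bound members this fold had a median of 3.54 (quartiles 3.10 and 4.20, range 2.44 to 5.74), beside a median of 3.98 (quartiles 3.33 and 4.85) over the strongest promoter peaks of all 8894 bound genes. Only 20 of the 66 lay above the median of all genes, 2 were in its top 10% (Ndufa2 and Atp5g3) and 8 in its bottom 10%. The respiratory chain was thus bound at a larger share of its genes than coding genes at large, with peaks of lower fold in the median. Mitochondrial ribosomal genes had a median of 3.49 and the Slc25 carriers one of 4.42.

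The fragments behind these folds were few. A summit at a member held a median of 17 fragments (range 12 to 26) over a local background of 3.66, and the summit of a promoter peak at any gene held 19 over 3.52. The peaks of members were also narrower, with a median width of 631.5 bp (quartiles 416 and 940) against 842 bp. The median −log10 q was 3.67 for members and 4.76 for all genes. The best member peak, at Ndufa2, ranked 797 by p-value among the 19753 Mof+/+ peaks on assembled chromosomes.

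**Figure D2:**
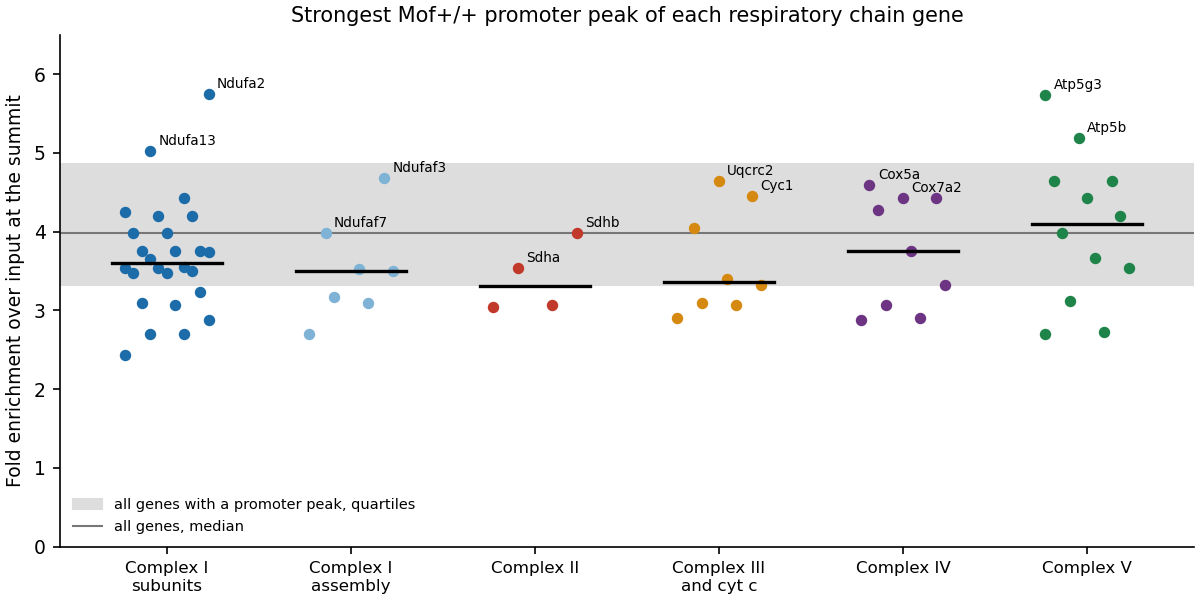
Fold enrichment over input (linear scale) at the summit of the strongest Mof+/+ promoter peak, 1 point for each of the 66 bound members, grouped by complex. Black lines give the median of each complex, the grey line and band the median (3.98) and quartiles (3.33 to 4.85) of all 8894 bound genes; complex V has the highest median (4.09) and complex II the lowest (3.31), and Ndufa2 and Atp5g3 stand highest.

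Complex I oxidises NADH and passes the electrons to ubiquinone. Among its core subunits, which carry out electron transfer, the folds were 3.76 at Ndufs7, 3.55 at Ndufs3, 3.50 at Ndufv2, 3.24 at Ndufs1 and 2.71 at Ndufv1, the subunit that takes electrons from NADH. These folds all lay below the median of all genes. Ndufs8, an iron-sulphur subunit, had no peak in the window, and the nearest one was 1233 bp from a start, just outside it.

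The accessory subunits of complex I were bound at 21 of 27 genes (77.8%, 59.2% to 89.4%), with folds from 2.44 to 5.74. The highest was at Ndufa2 (5.74, 26 fragments over a background of 3.70), where the peak was also within 1 kb of the start of Ik, a splicing factor gene on the other strand. Ndufa13 (GRIM-19) followed with a fold of 5.02 in a peak 2095 bp wide, and Ndufb2 with 4.43. The lowest of all members was Ndufb5 at 2.44, in a peak 338 bp wide that ended 255 bp from the nearest start. The accessory genes without a peak were Ndufa3, Ndufa8, Ndufa9, Ndufa12, Ndufb4 and Ndufs6, whose nearest peaks lay 27694 to 213691 bp away.

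Ndufaf genes encode factors that build complex I and are not part of the finished enzyme. Ndufaf3 had the highest fold among them (4.68) and the widest peak of all members (2475 bp), which was also within 1 kb of a start of Dalrd3. Ndufaf7, a methyltransferase, had a fold of 3.98 and Ndufaf6 one of 3.53. At Ndufaf2 the peak was 288 bp wide and its fold was 2.71. Ndufaf4 was the 1 assembly factor without a peak, with the nearest one 383287 bp away.

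Complex II, succinate dehydrogenase, is also an enzyme of the citric acid cycle, and all of its subunits are nuclear. The fold was 3.98 at Sdhb, the iron-sulphur subunit, 3.54 at Sdha, the flavoprotein that oxidises succinate, 3.07 at the membrane anchor Sdhd and 3.05 at the other anchor, Sdhc. Sdha had a second peak with a fold of 3.29. All 4 genes had a peak in the window but in none did a peak cover a start site, the nearest edges lying 43 bp (Sdha), 107 bp (Sdhb), 121 bp (Sdhc) and 125 bp (Sdhd) away. At Sdha and Sdhd another coding gene (Ccdc127 and Timm8b) had a start within 1 kb of the peak as well. The median width at complex II was 310.5 bp, the narrowest of the groups.

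Complex III passes electrons from ubiquinol to cytochrome c. The core proteins Uqcrc1 (2.90) and Uqcrc2 (4.65), the cytochrome c1 gene Cyc1 (4.45) and the Rieske iron-sulphur protein Uqcrfs1 (3.40) were all bound. The Cyc1 peak was 1784 bp wide, the third widest of the members, and the gene had a second peak of fold 3.09. Cycs, which encodes the soluble electron carrier cytochrome c, had a single peak of fold 3.32 over its start. Of the 5 small subunits 3 were bound. At Uqcrh the strongest peak (4.04) lay 982 bp from the nearest start, close to the edge of the window, and a weaker one (3.00) covered the start. Uqcrb had the narrowest peak of all members (282 bp), and Uqcr10 and Uqcrq had none closer than 11296 bp.

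Complex IV, cytochrome c oxidase, reduces oxygen. Its catalytic subunits are mitochondrial, and its nuclear subunits include isoforms that are restricted to muscle, heart, testis or other tissues. Of 8 such isoforms 1 was bound (12.5%, 2.24% to 47.1%), and of 6 widely expressed partners 5 were (83.3%, 43.6% to 97.0%). The intervals of isoforms and partners overlap, and that of the isoforms includes the 42.7% of all coding genes. The isoforms held 14 to 36 CpG sites around their starts. Among all coding genes with 14 to 45 sites 29.1% were bound, a value inside the isoform interval as well. A lack of binding particular to the isoforms is therefore not shown by 8 genes. Without the 8 isoforms complex IV was bound at 8 of 11 genes (72.7%, 43.4% to 90.3%), and the share over all members was 65 of 85 (76.5%, 66.4% to 84.2%). The count of 9 of 19 for complex IV thus includes 7 of its 10 unbound genes from these isoforms.

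The bound partners were Cox7a2 (fold 4.42), Cox8a (4.42), Ndufa4 (4.27), Cox4i1 (3.76) and Cox6a1 (2.88). Their restricted counterparts Cox8b, Ndufa4l2, Cox4i2 and Cox6a2 had no peak, and the nearest ones were 17875, 127099, 33773 and 24277 bp away. The exception was Cox7a1, the form of heart, skeletal muscle and brown fat, with a peak of fold 2.90 and 422 bp whose edge was 91 bp from its start. Its −log10 q was 1.95, and it was no longer counted with q ≤ 0.01 or among peaks past the weakest Mof+/- p-value, so that 0 of the 8 isoforms were bound there. In the pair of Cox6b1, the broad form, and Cox6b2, the testis form, neither was bound, with the nearest peaks at 23687 and 11306 bp. Cox7b2 and Cox8c, further testis isoforms, had their nearest peaks at 611466 and 21431 bp. Among the remaining subunits the highest fold was at Cox5a (4.59), while Cox6c and Cox7c were unbound with the nearest peak 344011 and 538594 bp away. Cox7a2l, a factor of respiratory supercomplexes, was bound with a fold of 3.32.

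Complex V is the ATP synthase, with a catalytic head turned by a ring in the membrane. The genes of the head and central stalk, Atp5a1, Atp5b, Atp5c1, Atp5d and Atp5e, were bound at 5 of 5 (56.6% to 100%), with folds of 4.65, 5.19, 4.65, 3.67 and 4.20. The 3 genes that encode the same subunit c of the ring were all bound, Atp5g3 at 5.73, Atp5g2 at 4.42 and Atp5g1 at 3.54. The peripheral stalk was bound at 2 of 5 records (Atp5j at 3.12 and Atp5h at 2.73, with Atp5f1 and both records of Atp5o unbound), and the small membrane subunits at 1 of 4 (Atp5k at 2.70, with Atp5j2, Atp5l and Atp5mpl unbound). The interval for the membrane subunits (4.56% to 69.9%) overlaps that of the head. These groupings by role within complexes were made with the values in view. Atp5s, which the symbol rule counts here, was bound with a fold of 3.98.

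Among the 6 unbound records of complex V the nearest peak lay 9448 bp away at Atp5j2 (subunit f), 32562 bp at Atp5l (subunit g), 53554 bp at Atp5f1 (subunit b) and 54635 bp at Atp5mpl. For Atp5o, which encodes the protein that joins head and stalk, it lay 87453 and 92158 bp away for the 2 records.

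The peaks of a few genes illustrate their form. At Atp5g3 1 peak of 1297 bp (chr2:73910570-73911866) with 25 fragments at the summit covered the start, and its summit lay 193 bp into the gene in an intron. At Atp5b, the catalytic beta subunit, 4 peaks lay near annotated starts, the largest number of any member. The first (chr10:128083271-128083848) covered a start with a fold of 5.19 and 23 fragments, and the other 3, further into the gene, had folds of 2.88, 2.38 and 3.10 with 12 to 13 fragments each. At Cox8a a peak of 575 bp (chr19:7216994-7217568) covered a start and had 19 fragments at a summit in coding sequence. In all, 76 different peaks served the members, and 58 members had 1 peak, 7 had 2 and 1 had 4. More than 1 peak was found at 12.1% of bound members and at 21.8% of all bound genes.

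**Figure D3:**
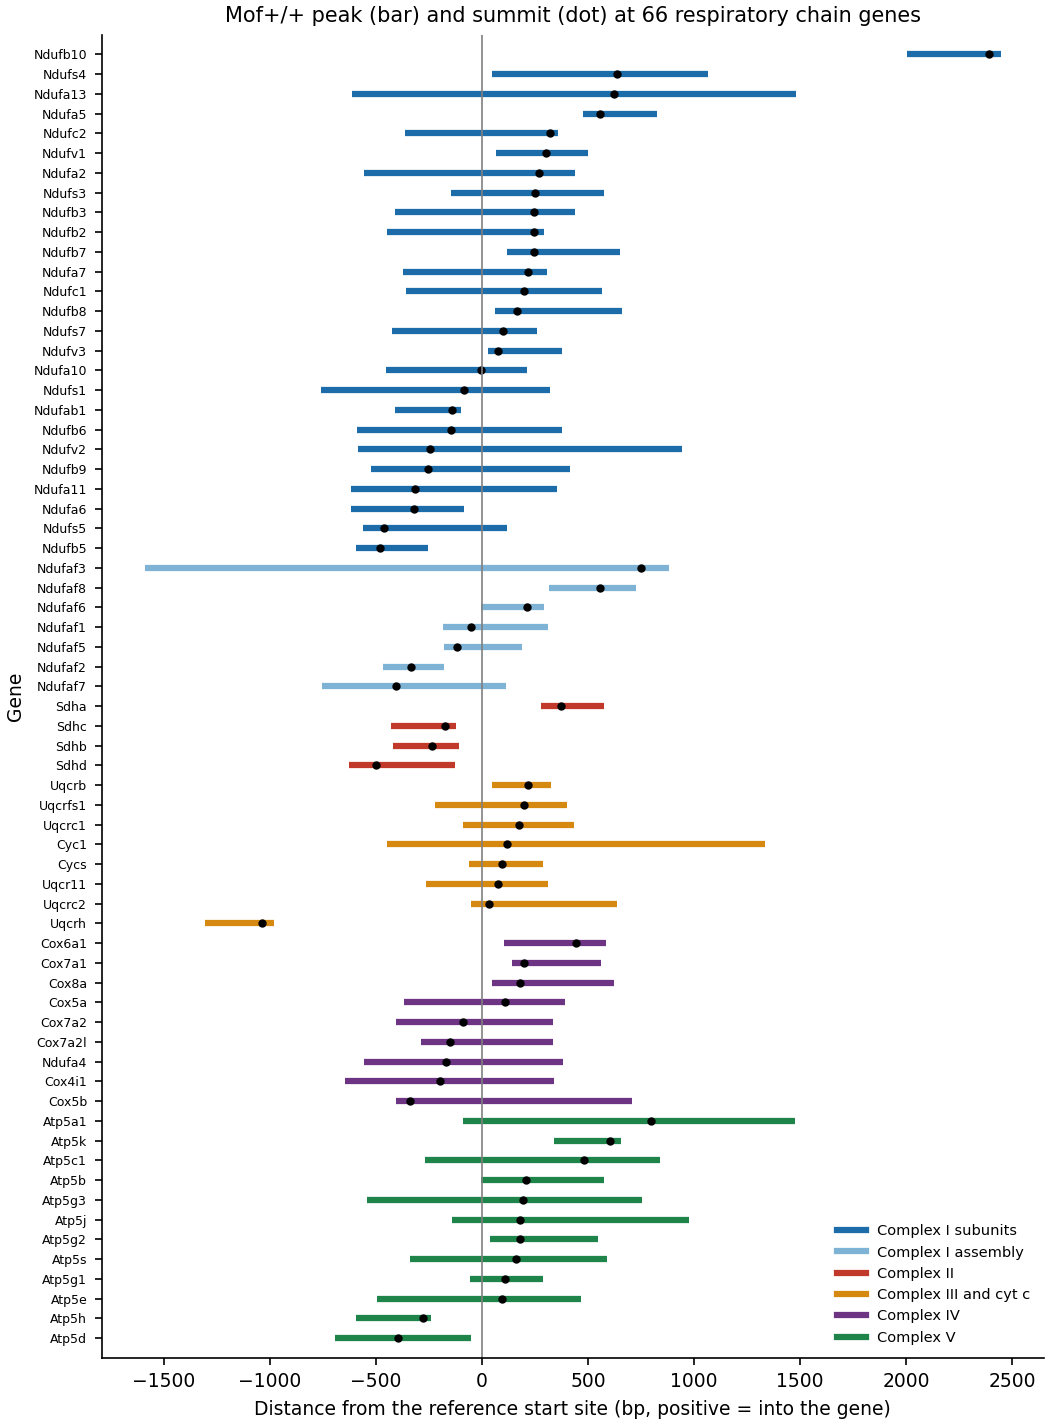
Extent (bars) and summit (black dots) of the strongest Mof+/+ promoter peak of the 66 bound members, in bp from the reference start site of the gene with positive values into the gene, coloured by complex. Most bars span or adjoin 0; the bars of complex II all stop short of it, and the peaks of Ndufb10 and Uqcrh lie farthest out.

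The summit of the strongest peak lay a median of 158 bp from the nearest annotated start (quartiles 85.5 and 295.5, range 4 to 1039), beside 192 bp over all bound genes. Relative to the reference start it was downstream in 41 members and upstream in 25. By annotation it fell outside the gene in 23 members, in an intron in 18, in a UTR or noncoding exon in 16 and in coding sequence in 9. Some peak covered a start site in 49 of the 66 (74.2%, against 77.9% of all bound genes), and in the other 17 the nearest edge was 32 to 290 bp away. At Ndufb10 the peak was within 1 kb only of a start other than the reference one, and it was also near the start of Rps2, so it cannot be assigned to 1 of the 2 genes.

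Shared promoters were common. In 26 of the 93 members (28.0%, against 9.36% of all coding genes) a diverging coding gene started at or within 1 kb before the reference start. Such a gene lies on the other strand and runs away from the member, and starts further into the member were not counted. Of these 26 members 23 were bound (88.5%, 71.0% to 96.0%), and of the 67 others 43 were (64.2%, 52.2% to 74.6%). The same division over all coding genes gave 80.2% and 38.9%. The strongest of the 23 were Ndufa2 with Ik (5.74), Atp5c1 with Kin, a DNA and RNA binding protein gene (4.65), and Ndufa4 with Phf14, a chromatin reader gene (4.27). Counting neighbours on either strand and on either side, the strongest peak was within 1 kb of the start of another coding gene at 30 members and of the member alone at 36. For these 30 the list does not say which gene the binding belongs to. One of them was Atp5j, whose peak was also within 1 kb of a start of Gabpa, the gene of a transcription factor subunit that acts on respiratory genes.

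Bound and unbound members also differed in their CpG sites, counted 500 bp to each side of the start. The median was 60.5 (range 19 to 131) in the 66 bound members and 47 (10 to 76) in the 27 unbound ones, and 68 and 18 over all coding genes. The unbound members thus held more CpG sites in the median than unbound genes at large. The 8 tissue-restricted isoforms had 14 to 36, and the 6 partners had 47 to 131, so the isoforms that lacked peaks were also poor in CpG sites. The bound Cox7a1 was one of the poorest, with 19. Without the isoforms, the 20 unbound members had a median of 48 and the 65 bound members one of 61.

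**Figure D4:**
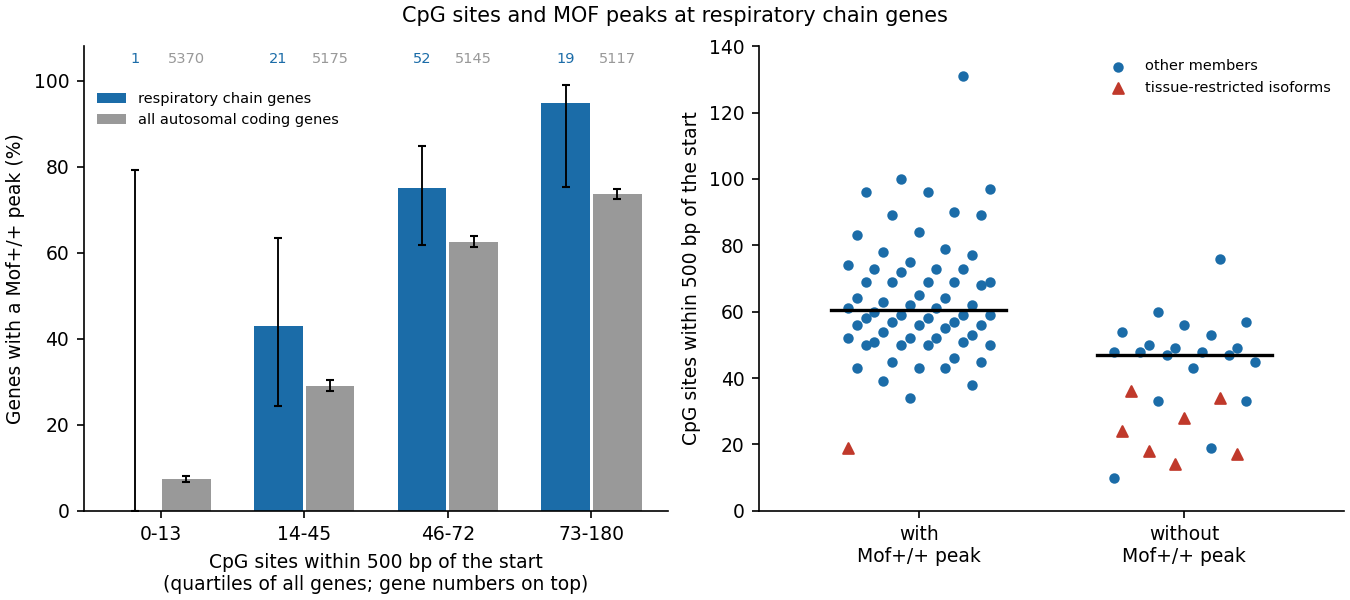
Left, share of genes (%) with a Mof+/+ promoter peak by quartile of CpG sites counted 500 bp to each side of the start (quartiles of all genes), for members (blue) and all autosomal coding genes (grey), with 95% Wilson intervals and gene numbers on top. Right, CpG sites of each bound and unbound member, with medians as lines and tissue-restricted isoforms as red triangles; bound members have a median of 60.5 and unbound ones of 47, and all isoforms lie at or below 36.

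Within classes of CpG number the members were bound at 39 of 52 genes with 46 to 72 sites (75.0%, against 62.6% of all genes in that class), at 18 of 19 with 73 to 180 sites (94.7% against 73.7%), and at 9 of 21 with 14 to 45 sites (42.9% against 29.1%). The single member with fewer sites, Atp5j2, was unbound. In these 3 classes the shares of members were above those of all genes, as the plot by CpG class shows, but the interval of the members included the value of all genes in the classes of 14 to 45 and of 46 to 72 sites. How much of the share of members goes with CpG number and shared promoters was not tested.

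Short sequence motifs of factors that act on respiratory genes were counted on both strands of the same 300 bases of every promoter, and none of the 7 motifs contains another. The NRF1 core GCGCATGC was present in 12 members (12.9%, against 3.47% of all coding promoters), among them Cycs, Sdhb and Atp5g2. The YY1 core AAGATGGC was in 10 (10.8% against 3.12%), the CRE TGACGTCA in 5 (5.38% against 2.48%), the ETS/GABP core CCGGAAGT in 6 (6.45% against 5.13%), and the ERR element TCAAGGTCA in 2, Sdhd and Atp5g3 (2.15% against 0.404%). The GC box GGGCGG was in 40 (43.0% against 46.2%) and the TATA box TATAAA in 11 (11.8% against 12.7%).

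Between bound and unbound members, the NRF1 core was in 9 of 66 and 3 of 27, and the YY1 core in 6 of 66 (9.09%) and 4 of 27 (14.8%). Over all bound and unbound genes the NRF1 core was in 5.70% and 1.81%, and the YY1 core in 5.28% and 1.5%, so the order for the YY1 core was the opposite of that in the members. The CRE was in 5 of 66 and 0 of 27, the 5 being Cycs, Ndufa10, Ndufa11, Ndufb2 and Uqcrfs1 (3.63% and 1.62% over all genes). The TATA box was in 4 of 66 (6.06%) and 7 of 27 (25.9%), which included Cox8b, Cox7b2, Cox6c, Atp5j2, Atp5l, Atp5o and Ndufa3 among the unbound. Over all genes it was in 6.69% of bound and 17.2% of unbound promoters. A match is a description of letters and not a binding site.

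Away from the window the unbound members were mostly far from any Mof+/+ peak. The nearest one was a median of 53554 bp from a start (range 1233 to 611466), against 84949 bp over all unbound coding genes. In 25 of the 27 it was over 10 kb away, Ndufs8 and Atp5j2 being the exceptions.

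To ask what remained with 1 copy of Mof, the members were compared with the Mof+/- list. None of the complexes had a Mof+/- peak inside the window of 1 kb at any member, and 0 of the 66 bound members had a promoter peak that overlapped a Mof+/- peak, where 302 of the 8894 bound genes did (3.40%). The nearest Mof+/- peak was a median of 1474012 bp away (1709190 bp over all genes). It was over 1 Mb away at 55 members, within 100 kb at 6, and within 10 kb at Atp5b alone, 4094 bp from a start.

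The lists differed in the background at their peaks as well as in number, and their sequencing depth is unknown. The lowest local background was 3.52 fragments in Mof+/+ and 2.26 in Mof+/-, and the −log10 p of the weakest peak was 3.25 and 4.72. Of the 66 bound members 53 (80.3%) had a peak past the weakest Mof+/- p-value, against 87.5% of all bound genes. When the Mof+/+ list was reduced to its strongest 716 peaks, the number in the Mof+/- list on assembled chromosomes, 0 of the 93 members were bound there too, while 682 coding genes (3.28%) were. The absence of members from the Mof+/- list was therefore also found in the strongest Mof+/+ peaks at an equal number, and whether reduced binding or the depth or enrichment of the Mof+/- libraries goes with it cannot be told apart.

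Related genes outside the rule were counted in the same way, beside shares of 42.7% (Mof+/+) and 1.37% (Mof+/-) over all autosomal coding genes. Of 42 other assembly factors for complexes I to V, 33 were bound in the Mof+/+ list (78.6%, 64.1% to 88.3%), with a fold of 7.08 at Sdhaf2, which inserts flavin into Sdha. In the Mof+/- list 1 was bound (2.38%, 0.422% to 12.3%), Sco2, a copper chaperone of complex IV. Of 15 regulators of respiratory genes 12 were bound in the Mof+/+ list (80.0%, 54.8% to 93.0%). In the Mof+/- list 2 were (13.3%, 3.74% to 37.9%), Pprc1, a relative of PGC-1, and Sp1. Those without a Mof+/+ peak were Ppargc1a (PGC-1α), whose nearest peak was 1014 bp away and so just outside the window, the mitochondrial RNA polymerase gene Polrmt, and Tfb1m, a methyltransferase of mitochondrial ribosomal RNA. Of the 3 X-linked subunits Ndufb11 was bound (fold 2.90). No peak of either list lay on the mitochondrial chromosome, which encodes the remaining subunits. Whether its reads entered peak calling is not stated, so binding there is unknown.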

How the data were processed

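MOF ChIP-seq libraries of Mof+/+ and Mof+/- WAT (paired-end) were mapped by the authors with snakePipes to GRCm38. The authors called peaks with MACS2 2.1.1.20160309.3 against input (bandwidth 200, mfold 5 to 500, q-value threshold 0.1). The deposited peak lists give the fold enrichment over input as a ratio, the p-value and q-value as −log10, and the summit, another deposited value used as a coordinate. Whether replicates were pooled is not stated, and library totals are not given in the lists. Of the columns with values, 1 in each list was not used. Chromatin was cut with CviKI-1 and sonicated, so fragment ends depend partly on local sequence. The design text names 2 control and 3 Mof+/- animals and the labels 2 per genotype. The study's reporting summary lists MOF antibodies from Abcam and from Millipore for ChIP-seq. The MOF antibody in the labels differs from at least 1 of them. H3 libraries and signal tracks were not analysed here.

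Positions start from 1 on GRCm38, and genes are GENCODE M21 on GRCm38.p6. A gene had a promoter peak when a peak edge lay within 1000 bp of the start of any of its transcripts. The reference start belonged to the principal transcript by APPRIS, then by support level and length. It was used for CpG sites (500 bp to each side), motifs (250 bp before to 50 bp after) and diverging neighbours on the other strand (up to 1000 bp before). Fragments and background at a summit were solved from the fold and the Poisson p of each peak as MACS2 defines them (tolerance 0.01 on −log10 p), which succeeded for 99.99% of Mof+/+ and 99.9% of Mof+/- peaks and was tested on simulated peaks. Shares have 95% Wilson intervals. With 1 list per genotype no test was run. Named genes were the top 3 by fold in each complex, the widest and narrowest peaks, complex II, Cyc1, Cycs, tissue-restricted isoforms with their partners, and members without a peak. Some results at single genes are not reported here. Genes named for their role or as examples were added after their values were seen. The members, lists and measures were chosen with earlier results of these data known. Python 3.11.15, numpy 2.4.6, pandas 2.3.3, scipy 1.17.1 and matplotlib 3.10.9 were used.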

Additional observations from a re-analysis of the deposited data

How the results depend on the processing

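Of the values recomputed for 13 results, 85 stayed within the interval of the reported value and 18 moved. For the count of overlapping peaks, staying meant an equal count. Windows of 500 or 3000 bp, other choices of start sites, and the summit in place of the peak edge moved none of them. The share of bound members fell to 60.2% with q ≤ 0.01, 57% for peaks past the weakest Mof+/- p-value and 47.3% with q ≤ 0.001, where all coding genes gave 39.0%, 37.4% and 32.7%. The tissue-restricted isoforms fell to 0% under each of the 3. With q ≤ 0.001 the structural genes of complex I fell to 58.8%, complex II to 50%, complex III with cytochrome c to 30.0% and complex IV to 26.3%. When 716 Mof+/+ peaks, the strongest, were kept, the share was 0% for the members, for each complex, for the Ndufaf genes and for the isoforms. A stricter threshold or a shorter list leaves fewer peaks by construction. The share of members in the Mof+/- list was 0% under every alternative run for it. Leaving out a replicate was not possible with 1 list per genotype. No paired analysis was possible because the lists carry no replicate numbers and no result comes from a test. Small gene groups limit the precision, the interval for complex II spanning 51.0% to 100%.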
